A study of Mus musculus with 15 samples.

Results

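DEAD and DEAH box proteins are RNA helicases that use ATP to open short RNA duplexes or to remove proteins from RNA. They act at nearly every step of an RNA's life, from the assembly of ribosomes in the nucleolus, through splicing and nuclear export, to translation and decay in the cytoplasm. Activated CD8+ T cells grow and divide within days, which places a load on ribosome assembly and on mRNA handling. The family was taken as the protein-coding mouse genes whose symbol begins with Ddx or Dhx and a digit, without Ddx23, Dhx8, Dhx15, Dhx16, Dhx38, Ddx58, Dhx58 and Ddx3y. This gave 45 genes (34 Ddx and 11 Dhx) of the 53 with such symbols, among 22028 protein-coding genes in the count tables. By their known roles, 16 act in ribosome biogenesis, 6 in pre-mRNA splicing, 5 in translation and mRNA decay, 4 in mRNA export, 3 in snRNP, tRNA and other nuclear RNA pathways, 3 in the germ line and 2 in the mitochondrial ribosome. Ddx11 serves sister chromatid cohesion, Ddx60 is an antiviral gene, and the roles of Ddx59, Dhx32, Dhx40 and Dhx57 are less settled.

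OT-I CD8+ T cells carry a transgenic receptor for the ovalbumin peptide SIINFEKL and, per the study's methods, came from Rag-deficient donors. They were transferred into C57BL/6J recipients, which received the peptide with control rat IgG (Ag) or with agonist antibodies against the costimulatory receptors OX40 (CD134) and 41BB (CD137) (Ag+Costim). Collection was on day 4 by the labels and somewhat earlier by parts of the study's text. CD8+ T cells were sorted from spleen and lymph nodes, and poly(A) RNA of 5 libraries per group was compared here. Age and sex were not labelled for single libraries, and the labels do not say whether 1 or several animals made up a library. A figure legend of the study gives 5 mice per group for its deep sequencing. The p-values measure the spread between these libraries. A group of Naive OT-I libraries was not analysed here.

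Library totals ran from 59598556 (Ag replicate 3) to 639070261 estimated counts. Levels are CPM, which set each count against the total of its library after TMM adjustment, and fold changes are Ag+Costim over Ag on the log2 scale. CD8 T cell markers (Cd8a, Cd8b1, Cd3d, Cd3e, Trac) summed to between 2737 and 5363 CPM in Ag against between 3649 and 4437 CPM in Ag+Costim. The Ag libraries were not alike. Summed over 8 markers of dividing cells, Ag replicates 1 and 4 reached 605 and 632 CPM, against 4505, 2764 and 4831 CPM in Ag replicates 2, 3 and 5 and between 4314 and 5433 CPM in Ag+Costim. The same 2 libraries were low in 5 antigen and costimulation response genes (Gzmb, Ifng, Il2ra, Tnfrsf4, Tnfrsf9), with 49.2 and 73.5 CPM, against 844, 430 and 895 CPM in Ag replicates 2, 3 and 5 and between 369 and 828 CPM in Ag+Costim. Over 4 B cell markers, Ag replicates 1, 3 and 4 held 111, 288 and 138 CPM, Ag replicates 2 and 5 held 17.5 and 20.8 CPM, and the highest Ag+Costim sum was 31.5 CPM. Over 3 erythroid markers, Ag replicate 3 held 668 CPM and Ag replicate 1 held 77.6 CPM, against at most 26.6 CPM in the other libraries. Myeloid markers summed to between 32.2 and 85.7 CPM in Ag against between 62.9 and 132 CPM in Ag+Costim, and Cd4 was at most 5.07 CPM. The part of these differences in the helicase values was not tested, but a member's fold change without Ag replicates 1 and 4 is given where it differed from the full value by over 1.5 times or in sign.

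All 45 members passed the filter on low counts, and 42 had a mean of at least 10 CPM over the 10 libraries. The 3 below were Ddx4, Ddx25 and Ddx43, helicases of germ cells. Their levels stayed at or under 2.75 CPM in every library, and Ddx4 reached 1.66 CPM in Ag replicate 3 and at most 0.255 CPM in the others. Measured per transcript length (TPM, counts over annotated length scaled to a common total), the leading 5 members were Ddx39, Ddx39b, Ddx5, Ddx24 and Ddx47. Ddx39 and Ddx39b (UAP56), paralogs that load export factors onto spliced mRNA, had TPM levels of 369 ± 198 and 231 ± 40.3 in Ag against 599 ± 58.6 and 317 ± 9.84 in Ag+Costim (SD, n = 5). Ddx5 (p68), a splicing and transcription cofactor, had 227 ± 78.5 TPM in Ag against 227 ± 15.7 TPM in Ag+Costim. Ddx24 and Ddx47, both of the nucleolar ribosome assembly group, had 135 ± 16.8 and 114 ± 12.7 TPM in Ag against 157 ± 6.86 and 129 ± 4.06 TPM in Ag+Costim. Within Ag the SDs of Ddx39, Ddx39b and Ddx5 bridged the gaps between these neighbours, while in Ag+Costim the order Ddx39, Ddx39b, Ddx5, Ddx24, Ddx47 was separated by more than the sum of neighbouring SDs.

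No member was called between Ag and Ag+Costim by edgeR's quasi-likelihood test at a Benjamini-Hochberg (BH) adjusted p under 0.05, and none of the 24262 genes tested was (0% called). At an unadjusted p under 0.05, 21 members were higher in Ag+Costim and 2 were lower, against 7.89% and 10.7% of all genes tested. Among genes at 10 CPM or more, 21 and 1 of 42 members (50% and 2.38%) stood against 20.2% and 2.82% of genes. The 1 lower member was Ddx60, which met that level only through its Ag libraries. DESeq2 called 13 members as higher and 2 lower (background 2.57% and 19.7% of the 36117 genes with an adjusted p in that tool, 9.84% and 3.09% of those at 10 CPM or more). With limma voom and a weight per library, 34 members were called higher and 4 lower, where 25.8% and 26.4% of all genes and 57.7% and 12.5% of genes at 10 CPM or more were. In that fit Ag replicates 2, 3 and 5 carried weights of 0.0986, 0.508 and 0.0656. Its Ag values therefore rest mainly on Ag replicates 1 and 4 (weights 1.42 and 2.00), the libraries with few dividing cell and antigen response transcripts. Of the 42 members at 10 CPM or more, 38 had a fold change above 0 (90.5%, against 75.6% of genes at that level), with a median of 0.44. The median of all 8626 genes at that level was 0.24, and 33 of the 42 members lay above it. Scaling by total counts, by DESeq2 size factors or by the upper quartile moved both medians together, to 0.20 against 0.00, to 0.31 against 0.12 and to 0.21 against 0.02, and 33 members stayed above the gene median in each. Direction relative to 0 was less firm, since Ddx5, Ddx6, Ddx55, Dhx36 and Dhx40 fell below 0 by total counts and by the upper quartile.

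In 14 of the 45 members the lowest Ag+Costim library exceeded the highest Ag library (31.1%, background 4.48%), and in none did the highest Ag+Costim library fall short of the lowest Ag library (background 1.13%). Restricted to genes at 10 CPM or more the shares were 33.3% of members and 11.3% of genes. This count depended on the scaling. It was 12 with DESeq2 size factors (28.6% of members against 7.32% of genes at 10 CPM or more), 7 with total counts (16.7% against 7.28%) and 4 with the upper quartile (9.52% against 3.73%), where 1 member lay below. Ddx19a, Ddx20 and Ddx3x stood without overlap under all 4 scalings. Without Ag replicate 5 the count was 23 (54.8% of members against 19.4% of genes at 10 CPM or more). Without Ag replicates 1 and 4 together it was 16, among them the same 14 members, where 17.5% of genes at 10 CPM or more stood likewise.

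**Figure D1:**
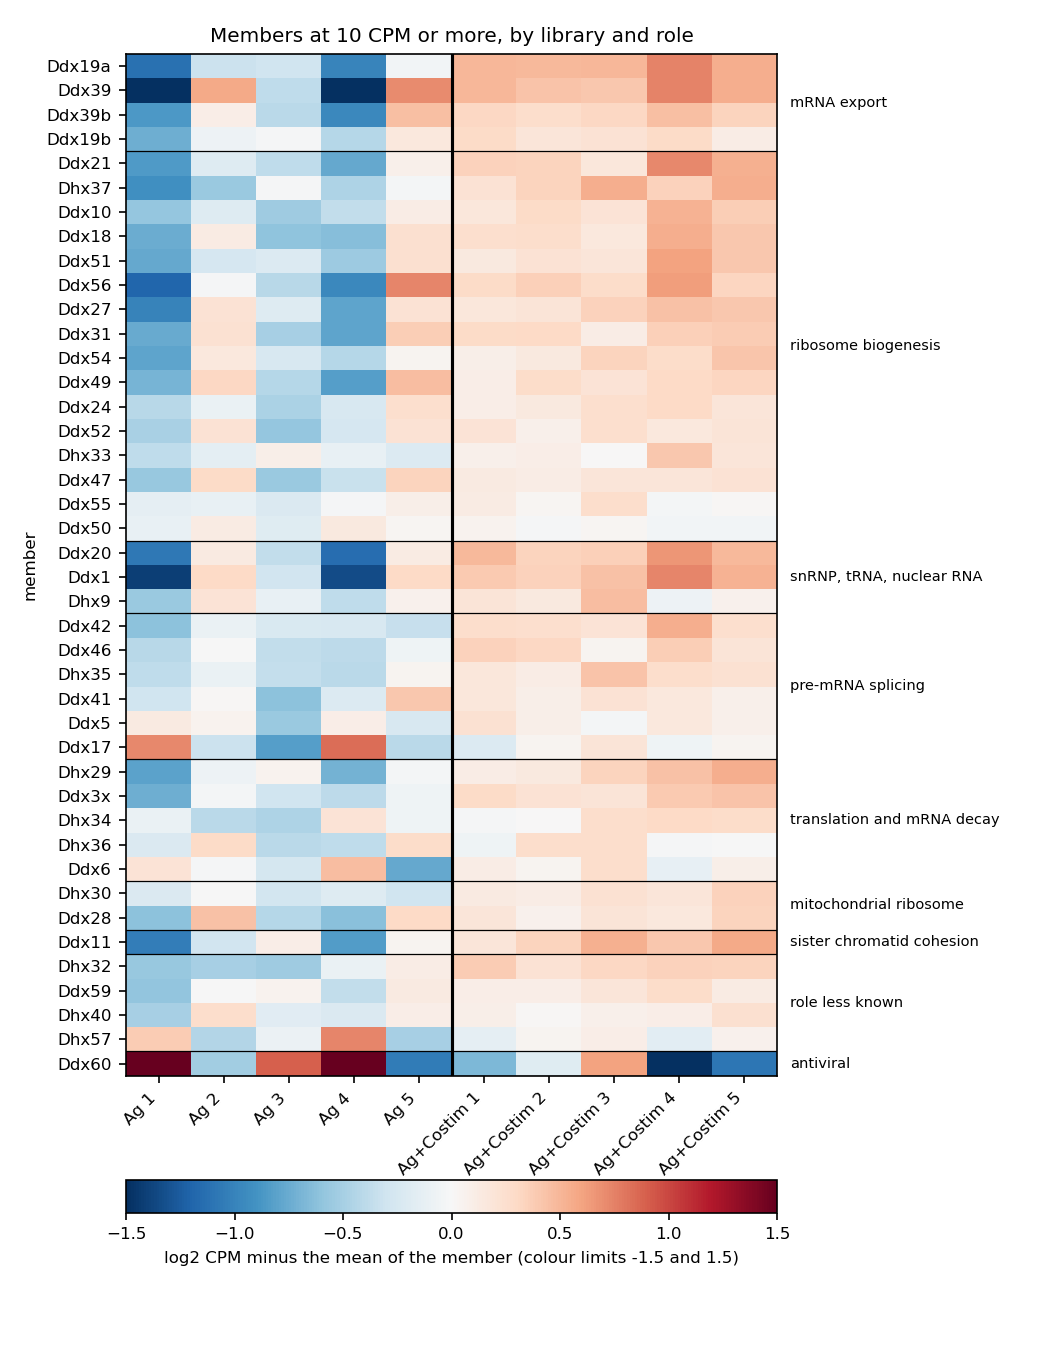
Colour shows log2 CPM of each of the 42 members at 10 CPM or more (rows, grouped by role) in each of the 10 libraries (columns), minus the mean of that member. The 5 Ag+Costim columns are near uniform. Ag replicates 1 and 4 are the lowest Ag columns for 23 of the 42 members. They are the highest Ag columns for Ddx60, Ddx17, Dhx57, Ddx5 and Ddx6.

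The members varied more among Ag than among Ag+Costim libraries. The coefficient of variation was larger in Ag for all 42 members at 10 CPM or more, with medians of 26.4% and 8.86%, as it was for 96.3% of genes at that level (medians 32.2% and 8.54%). In 23 of the 42 (54.8%), Ag replicates 1 and 4 were the lowest pair of the Ag libraries, and in 5 (11.9%) they were the highest pair, against 40.3% and 19.1% of genes at 10 CPM or more. Among these 42, the widest relative spread over the Ag+Costim libraries was that of Ddx60, at 61.6%.

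The mRNA export helicases held the member with the largest fold change. Ddx19a and Ddx19b (DBP5 paralogs) release mRNA from its export receptor on the cytoplasmic face of the nuclear pore. In CPM, Ddx19a had 19.2, 33.6, 34.0, 21 and 40.7 in Ag replicates 1 to 5 and 59.2, 58.5, 58.9, 70.3 and 60.8 in Ag+Costim replicates 1 to 5. Every Ag+Costim library thus exceeded the highest Ag library, and the log2 fold change was 1.05 (SE 0.21, edgeR BH 0.140, DESeq2 adjusted p 0.000206). Without Ag replicates 1 and 4 the fold change was 0.78 (edgeR BH 0.0562). Ddx19b, its neighbour on chromosome 8, had 20.2, 31.9, 33.0, 24.9 and 37.3 CPM in Ag against 40.9, 38.1, 38.9, 40.9 and 36.3 CPM in Ag+Costim. The groups overlapped there, with a log2 fold change of 0.41 (SE 0.17, edgeR BH 0.262; 0.21 without Ag replicates 1 and 4). Ddx39 had 138, 724, 374, 149 and 798 CPM in Ag against 684, 653, 643, 815 and 709 CPM in Ag+Costim. Its low Ag values were in replicates 1 and 4, the libraries lowest in dividing cell markers and in antigen and costimulation response genes. Ag replicates 2 and 5 lay within the Ag+Costim range. The part of these library differences in the Ddx39 values was not tested. The log2 fold change of 0.68 (SE 0.46, edgeR BH 0.372, DESeq2 adjusted p 0.253) was 0.16 without Ag replicates 1 and 4. Ddx39b had 255 ± 109.5 CPM in Ag against 378 ± 18.2 CPM in Ag+Costim (SD, n = 5). Its log2 fold change of 0.57 (SE 0.26, edgeR BH 0.273, DESeq2 adjusted p 0.117) was 0.25 without Ag replicates 1 and 4. All 4 export members were above 0 under the 4 scalings.

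The ribosome biogenesis group was the most numerous. Of its 16 members, 15 had a fold change above 0 (14 with total counts or the upper quartile), 9 had an unadjusted edgeR p under 0.05 and 3 stood without overlap, with a group median of 0.48. As shares these were 93.8%, 56.2% and 18.8%, against 75.6%, 20.2% and 11.3% of genes at 10 CPM or more. Ddx21, a nucleolar helicase that couples rRNA transcription to processing, had 48.3, 76.5, 67.2, 51.3 and 92.1 CPM in Ag against 111, 110.4, 98.4, 144 and 126 CPM in Ag+Costim. Each Ag+Costim library was above the Ag range, and the log2 fold change was 0.81 (SE 0.20, edgeR BH 0.163, DESeq2 adjusted p 0.00551). Dhx37, which releases the U3 snoRNA from the small subunit precursor, had 15.4, 19.8, 28.7, 21.1 and 28.5 CPM in Ag against 33.7, 36.6, 42.3, 37.1 and 42.3 CPM in Ag+Costim. Its groups did not overlap either, with a log2 fold change of 0.76 (SE 0.18, edgeR BH 0.157). Ddx10, another small subunit factor, had 51.9 ± 10.7 CPM in Ag against 79.1 ± 7.97 CPM in Ag+Costim (SD, n = 5), a log2 fold change of 0.61 (SE 0.16, edgeR BH 0.182). Ddx50, the paralog of Ddx21, was the steadiest of the group, with 85.1, 99.4, 81.0, 101 and 93.6 CPM in Ag against 95.2, 90.5, 93.5, 89.1 and 89.0 CPM in Ag+Costim. Its log2 fold change was -0.01 (SE 0.11, edgeR BH 0.962), and 0.014 without Ag replicates 1 and 4. Ddx24 and Ddx47 had log2 fold changes of 0.37 (SE 0.16, edgeR BH 0.268) and 0.28 (SE 0.20, edgeR BH 0.393), with overlapping groups, and that of Ddx47 was 0.11 without Ag replicates 1 and 4.

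**Figure D2:**
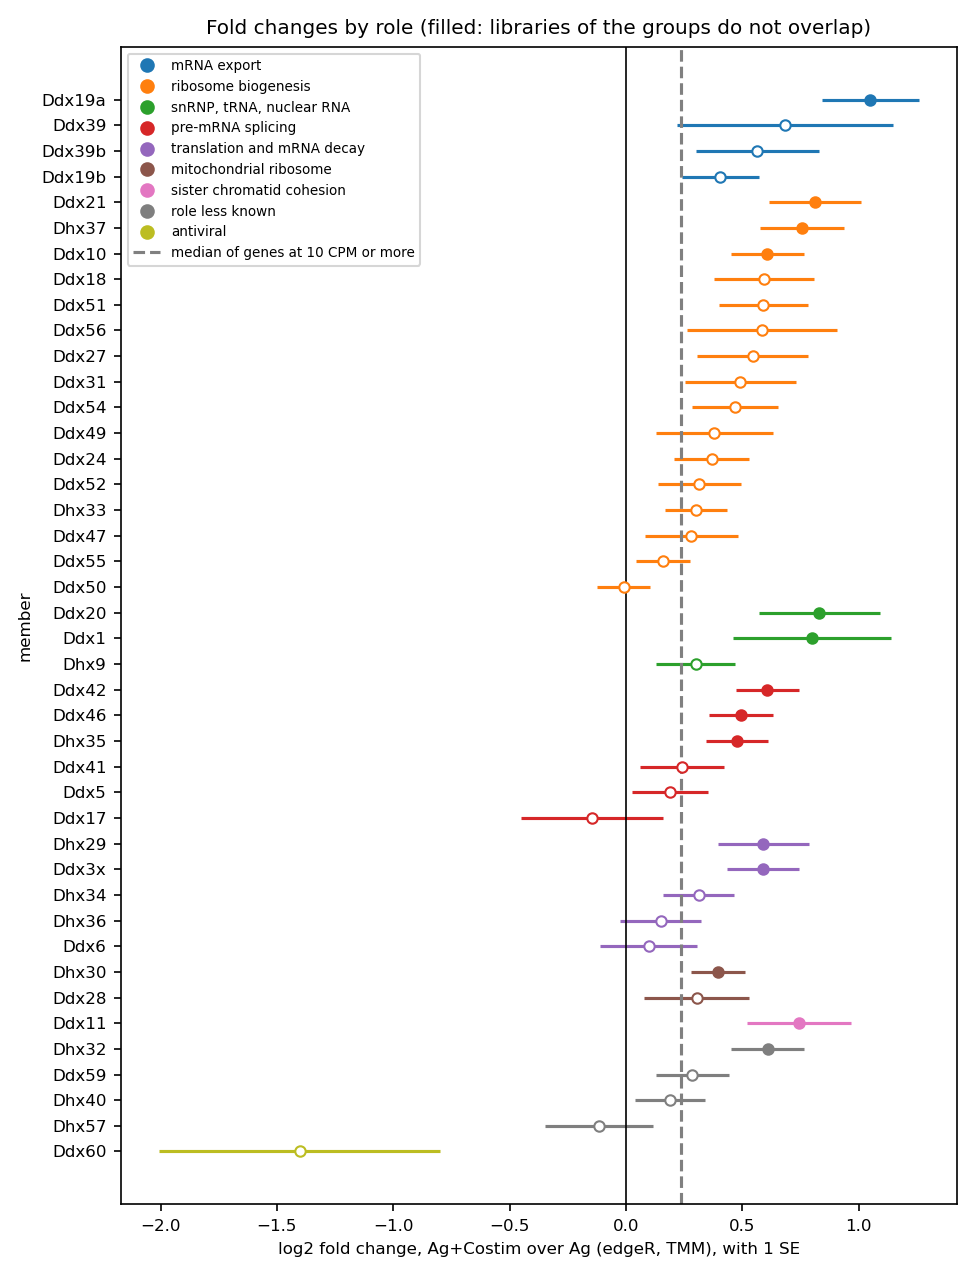
Each point is the log2 fold change of 1 member (rows, coloured by role) with 1 SE, filled where the libraries of the groups do not overlap, and the dashed line marks the median of 0.24 for genes at 10 CPM or more. Ddx19a lies farthest right at 1.05, Ddx60 farthest left at -1.40, and 33 of the 42 points lie right of the dashed line.

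In the group of snRNP, tRNA and other nuclear RNA pathways, Ddx20 (Gemin3) is a subunit of the SMN complex that assembles Sm rings on snRNAs. It had 23.0, 53.1, 37.5, 21.9 and 52.9 CPM in Ag against 67.8, 60.9, 62.1, 76.4 and 68.0 CPM in Ag+Costim. The groups did not overlap, and Ag replicates 1 and 4 were lowest (log2 fold change 0.83, SE 0.26, edgeR BH 0.224; 0.50 without those libraries). Ddx1, a subunit of the tRNA ligase complex, had 72.3, 237, 158, 76.3 and 237 CPM in Ag against 253, 246, 262, 319.6 and 277 CPM in Ag+Costim. The highest Ag and lowest Ag+Costim values were close. The log2 fold change of 0.80 (SE 0.34, edgeR BH 0.266, DESeq2 adjusted p 0.0752) was 0.38 without Ag replicates 1 and 4. Dhx9, which unwinds structured RNA and RNA-DNA hybrids, had 37.5 ± 7.98 CPM in Ag against 46.2 ± 6.58 CPM in Ag+Costim (SD, n = 5), a log2 fold change of 0.30 (SE 0.17, edgeR BH 0.315) that was 0.12 without Ag replicates 1 and 4.

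Among the splicing members, Ddx42 and Ddx46 (Prp5), which act when the U2 snRNP joins the branch site, stood without overlap. Ddx42 had 73.6, 105, 95.7, 95 and 88.5 CPM in Ag against 135, 134, 129.7, 165 and 134 CPM in Ag+Costim. The gap between the groups exceeded the Ag+Costim spread apart from replicate 4, and the log2 fold change was 0.61 (SE 0.14, edgeR BH 0.147, DESeq2 adjusted p 0.00210). Ddx46 had a log2 fold change of 0.49 (SE 0.14, edgeR BH 0.199), from 114 ± 15.8 to 161 ± 14.7 CPM (SD, n = 5). Ddx5 and Ddx17 (p72), paralogs that bind structured RNA near splice sites, differed from these. Ddx17 had 67.0, 32.4, 22.8, 72.3 and 30.6 CPM in Ag against 35.2, 41.6, 46.2, 38.9 and 41.7 CPM in Ag+Costim. Ag replicates 1 and 4 were above and the other 3 Ag libraries below the whole Ag+Costim range. The log2 fold change of Ddx17 was -0.15 (SE 0.30, edgeR BH 0.771) with all libraries and 0.52 (edgeR BH 0.219) without Ag replicates 1 and 4. Ddx5 had a log2 fold change of 0.19 (SE 0.16, edgeR BH 0.471), below 0 with total counts and the upper quartile and 0.35 without Ag replicates 1 and 4.

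Of the translation and decay members, Ddx3x, which helps ribosomes scan structured leaders, had 97.8, 158, 132, 124 and 156 CPM in Ag against 198, 189, 186, 213 and 218 CPM in Ag+Costim. No Ag library reached the Ag+Costim range (log2 fold change 0.59, SE 0.16, edgeR BH 0.189, DESeq2 adjusted p 0.00275). Its Y-linked copy Ddx3y, outside the rule, was at 14.4 and 57.5 CPM in Ag replicates 3 and 4, at 34.2 and 34.4 CPM in Ag+Costim replicates 3 and 4, at 3.02 CPM in Ag replicate 5 and at or under 0.256 CPM in the other 5 libraries. Dhx29, an initiation factor bound to the small ribosomal subunit, had 36.8 ± 9.78 CPM in Ag against 55.4 ± 7.15 CPM in Ag+Costim (SD, n = 5), without overlap. Its log2 fold change of 0.59 (SE 0.19, edgeR BH 0.230, DESeq2 adjusted p 0.0528) was 0.35 without Ag replicates 1 and 4. Ddx6, the decapping partner and translational repressor of P-bodies, had 118, 101, 84.8, 141 and 59.98 CPM in Ag against 109.9, 105, 122, 93.4 and 108 CPM in Ag+Costim. The Ag range enclosed the Ag+Costim range, and the log2 fold change of 0.10 (SE 0.21, edgeR BH 0.779) was below 0 under each of the other 3 scalings and 0.41 without Ag replicates 1 and 4.

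Dhx30, which binds mitochondrial rRNA and supports assembly of the mitochondrial ribosome, had 87.3, 101, 83.5, 88.9 and 82.2 CPM in Ag against 111, 109, 118, 115 and 129 CPM in Ag+Costim. The groups did not overlap, and the Ag values were close together, with a log2 fold change of 0.39 (SE 0.12, edgeR BH 0.204, DESeq2 adjusted p 0.0344) and of 0.40 without Ag replicates 1 and 4. Of the members with a less settled role, Dhx32 had 37.7 ± 8.45 CPM in Ag against 57.5 ± 2.39 CPM in Ag+Costim (SD, n = 5), without overlap (log2 fold change 0.61, SE 0.16, edgeR BH 0.172). Dhx57 had 35.5, 20.1, 25.5, 45.2 and 19.3 CPM in Ag against 24.8, 28.0, 29.0, 24.3 and 28.3 CPM in Ag+Costim, again with Ag replicates 1 and 4 on top (log2 fold change -0.12, SE 0.23, edgeR BH 0.762; 0.33 without them).

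Ddx60, an interferon-induced cytoplasmic helicase, was the member at 10 CPM or more with the lowest fold change. It had 25.6, 5.28, 14.1, 28.3 and 3.66 CPM in Ag against 4.78, 6.68, 11.6, 2.45 and 3.6 CPM in Ag+Costim. Ag replicates 1, 3 and 4 lay above every Ag+Costim library, whereas Ag replicates 2 and 5 lay within their range. The same 3 Ag libraries held the highest B cell marker sums (111, 288 and 138 CPM, against at most 31.5 CPM in the other 7), and the part of these transcripts in the Ddx60 values was not tested. The log2 fold change was -1.40 (SE 0.60, edgeR BH 0.267, DESeq2 adjusted p 0.0453), and -0.38 (edgeR BH 0.741) without Ag replicates 1 and 4. The motif GAAANNGAAA, the core of the element bound by interferon-regulated factors, was looked for on both strands of RefSeq promoters (GRCm38.p6, 250 bases before to 50 after each start). No promoter was at hand for Ddx6, Ddx11 and Ddx39, which left 42 of the 45 members. Of these, Ddx49 and Ddx60 held it (4.76%), as did 3.99% of 27025 genes. The E-box CACGTG, the palindrome bound by Myc and related factors, was in the promoters of 7 members (16.7%) and of 8.09% of genes. Among the 14 members without overlap, of which Ddx11 could not be searched, Ddx42 and Dhx35 held it. In Ddx42 it lay before an internal start (chr11:106230416-106230665), and the 250 bases before the gene's first start (chr11:106216676-106216925) had none. The Ddx60 promoter is shown because this member had the lowest fold change of those at 10 CPM or more; capitals mark matches to GAAANNGAAA or its reverse complement in the 250 bases before the start (chr8:61927837-61928086, + strand).
Ddx60 promoter: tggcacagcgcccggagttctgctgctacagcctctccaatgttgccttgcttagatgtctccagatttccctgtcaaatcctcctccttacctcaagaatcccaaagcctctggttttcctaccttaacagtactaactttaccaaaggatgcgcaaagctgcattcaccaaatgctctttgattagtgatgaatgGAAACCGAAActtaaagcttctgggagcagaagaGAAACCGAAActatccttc

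Paralog pairs were compared within each library, as the log2 ratio of their CPM values, which no scaling of the library can change. The 4 pairs were chosen after the values of their members had been seen, so the ratios are a description without a test. Ddx21 and Ddx50 lie on the same strand of chromosome 10, 13613 bases apart, and shared no 50-base stretch of transcript sequence. Their log2 ratio was -0.82, -0.38, -0.27, -0.98 and -0.02 in Ag against 0.22, 0.29, 0.07, 0.69 and 0.50 in Ag+Costim. Ddx50 thus exceeded Ddx21 in all 5 Ag libraries and Ddx21 exceeded Ddx50 in all 5 Ag+Costim libraries, in CPM, with means of -0.49 ± 0.40 and 0.35 ± 0.24 (SD, n = 5). Per transcript length Ddx50 had the higher mean in both groups, with 63.9 ± 14.99 TPM against 23.7 ± 1.89 TPM for Ddx21 in Ag, and 55.8 ± 2.09 TPM against 38.2 ± 5.35 TPM in Ag+Costim (SD, n = 5). Ddx19a and Ddx19b lie 5387 bases apart on chromosome 8. Their log2 ratio was -0.07, 0.08, 0.04, -0.25 and 0.13 in Ag against 0.53, 0.62, 0.60, 0.78 and 0.75 in Ag+Costim, again without overlap. These genes shared 50-base stretches over 28.1% of Ddx19a and 12.4% of Ddx19b transcript sequence, so the split of reads between them is uncertain. The log2 ratio Ddx39 over Ddx39b was -0.26 and -0.04 in Ag replicates 1 and 4, between 0.72 and 1.17 in the other Ag libraries and between 0.793 and 0.998 in Ag+Costim. For Ddx5 over Ddx17 the means were 3.39 ± 0.52 in Ag against 3.6 ± 0.24 in Ag+Costim (SD, n = 5), with overlap.

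**Figure D3:**
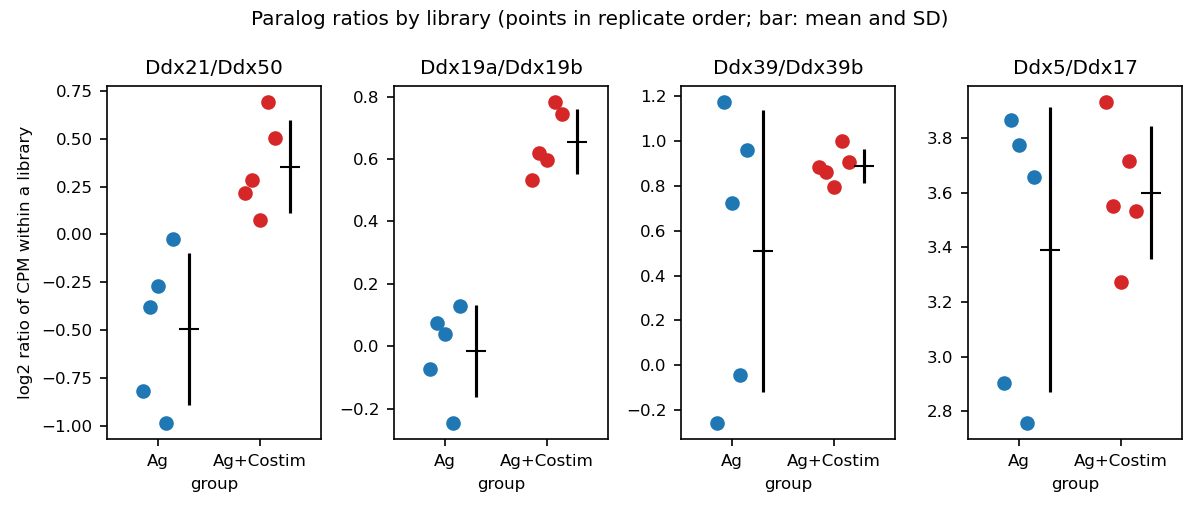
Points are the log2 CPM ratio of a paralog pair in each library, in replicate order, with the mean and SD of the 5 libraries of each group beside them. Ddx21/Ddx50 and Ddx19a/Ddx19b separate the groups (means -0.49 and 0.35, -0.01 and 0.66), whereas Ddx39/Ddx39b and Ddx5/Ddx17 spread in Ag across the Ag+Costim values.

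Transcript usage was tested in 10441 genes with more than 1 transcript past the filter, 39 of them members. Ddx11 was the member called (edgeR diffSpliceDGE, BH 0.000281), 1 of 39, where 0.297% of genes were called. Ddx11 is a DEAH box DNA helicase that acts at replication forks when sister chromatids are tied together. As a gene it had 16.7, 28.1, 36.6, 19.1 and 35.1 CPM in Ag against 38.8, 43.0, 49.6, 45.1 and 50.6 CPM in Ag+Costim, without overlap (log2 fold change 0.74, SE 0.22, edgeR BH 0.214; 0.46 without Ag replicates 1 and 4). Its main protein-coding transcripts Ddx11-205 and Ddx11-201 differ, among other places, at the end of a coding exon on chromosome 17. They are 4141 and 4149 bases long, so they also differ outside this exon, where Ddx11-201 is the longer. In Ddx11-205 the exon has 87 bases, in Ddx11-201 it stops after 9, so that 78 bases or 26 codons are left out in frame. The exon is shown in both forms (GENCODE M21, mm10, + strand), with the bases absent from the short form in capitals, which begin with the GTGAGG of the earlier splice donor.
Ddx11-205 exon, chr17:66130460-66130546: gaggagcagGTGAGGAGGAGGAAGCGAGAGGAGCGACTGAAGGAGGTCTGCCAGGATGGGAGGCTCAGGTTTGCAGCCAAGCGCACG
Ddx11-201 exon, chr17:66130460-66130468: gaggagcag

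Of the estimated counts on transcripts with either form, the short form took 0.464%, 0%, 0.164%, 0.471% and 0.192% in Ag replicates 1 to 5. In Ag+Costim replicates 1 to 5 it took 64.5%, 59.1%, 24.6%, 0.629% and 0.216%. In Ag+Costim replicates 1, 2 and 3 the transcripts with the short form thus took 24.6% or more. Ag+Costim replicates 4 and 5 were at or near the Ag level, with 16379 and 18555 counts behind their values. The means were 0.258% ± 0.205 in Ag against 29.8% ± 30.9 in Ag+Costim (SD, n = 5). The exact two-sided permutation p over 252 assignments was 0.0317, and 0.0635 after BH adjustment over the 2 shares tested (the other was the Dhx30 intron). Ddx11 had been singled out with results of these data known. The p rose to 0.0635 or 0.0794 when any 1 Ag library was left out. The transcript usage call was absent with limma's diffSplice (BH 0.204), with the replicate number as a block, and where a transcript needed at least 50 counts in 5 libraries, which leaves out Ddx11-201. These shares count whole transcripts, which also differ outside this exon, and come from StringTie's division of reads among overlapping transcripts. The event table had 1 row inside this exon, the 9 bases common to both forms, with a percent spliced in of 97.8% in Ag against 99.3% in Ag+Costim, and no row for the 78 bases.

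**Figure D4:**
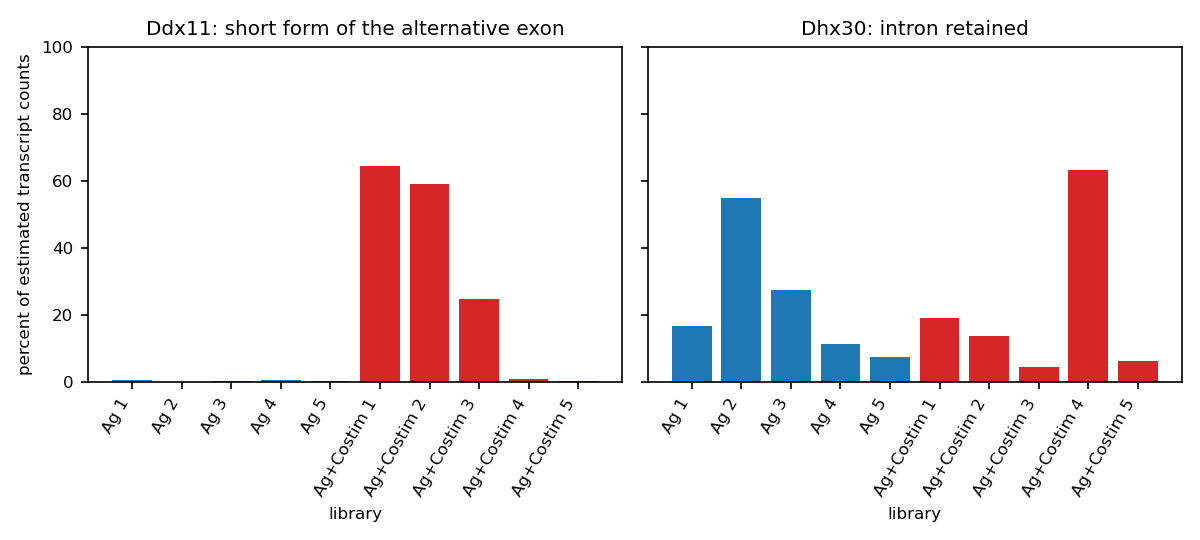
Bars give the percent of estimated transcript counts in each library that fell on the short form of the Ddx11 exon (left) and on transcripts retaining the Dhx30 intron (right). The Ddx11 short form is at 64.5%, 59.1% and 24.6% in Ag+Costim replicates 1 to 3 and under 1% elsewhere, and the Dhx30 intron peaks in Ag replicate 2 (54.9%) and Ag+Costim replicate 4 (63.4%).

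Splicing and transcript-end events were given as 1 value of percent spliced in (PSI) per group, with the libraries combined, so no spread between replicates can be set beside them. The table listed 713 events in 43 members and none in Ddx4 and Ddx28. Of the 658 core exons of members, 612 had a PSI over 95% in both groups. The same share was not computed for the core exons of all genes. Some starts, ends and introns of members were mixed, such as the starts of Ddx39b (51.4% and 48.5% in Ag). The PSI of the groups differed by at most 0.01 in 82.5% of member events and in 62.3% of all events. The events of other genes were not matched to these for expression or event type. With a Whippet probability over 0.9 and a PSI difference over 0.05, 5 member events in 4 genes passed, or 0.701% of member events, against 1.05% of all 138940 events.

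The largest of these PSI differences was at a coding exon of Ddx60 (142 bases), which went from 79.4% in Ag to 98.5% in Ag+Costim, 19 points higher. Libraries with few Ddx60 counts occurred in both groups. The main transcript, Ddx60-201, had 10733 and 8695 counts in Ag replicates 1 and 4. It had 967, 566 and 1322 in Ag replicates 2, 3 and 5, and between 775 and 6389 in Ag+Costim. How much each library weighed in the combined PSI was not tested. The exon's length is not a multiple of 3, so skipping would shift the reading frame. A coding exon of Ddx59 (129 bases, a multiple of 3) went from 95.4% to 89.3%. No annotated transcript of either gene skips these exons, so the transcript counts could not be set beside them. Both are printed to show the bases that the events add or remove (mm10, + strand).
Ddx60 exon, chr8:61954498-61954639: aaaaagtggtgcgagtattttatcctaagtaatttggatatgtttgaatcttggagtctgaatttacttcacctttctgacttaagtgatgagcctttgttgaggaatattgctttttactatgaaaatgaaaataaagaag
Ddx59 exon, chr1:136434506-136434634: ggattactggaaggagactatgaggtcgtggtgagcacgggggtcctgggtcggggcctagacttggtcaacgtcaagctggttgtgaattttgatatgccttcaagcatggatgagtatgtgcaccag

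Dhx30 had a retained intron of 329 bases near its 5′ end (chr9:110115162-110115490, - strand), whose PSI was 42% for Ag against 23.6% for Ag+Costim, 18.4 points lower in Ag+Costim. Its splice sites are shown with the intron in capitals.
Dhx30 intron, 5′ splice site, chr9:110115471-110115496: tataagGTAAGGTGACTTAGCCCTGC
Dhx30 intron, 3′ splice site, chr9:110115156-110115181: TGAATCTCATATTTTTTGAGatgaag

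From the transcript counts, the retained share (3 transcripts that keep the intron, against 6 that remove it) was 16.6%, 54.9%, 27.3%, 11.1% and 7.44% in Ag against 19.1%, 13.7%, 4.45%, 63.4% and 6.22% in Ag+Costim. High and low libraries occurred in both groups. The means were 23.5% ± 19.1 and 21.4% ± 24.2 (SD, n = 5), a difference of -2.11 points (two-sided exact permutation p = 0.825, the same after BH adjustment over the 2 shares). The difference changed sign when Ag replicate 2 (5.75 points), Ag+Costim replicate 3 (2.13 points) or Ag+Costim replicate 5 (1.68 points) was left out. Dhx30 was not called for transcript usage. The remaining events were 2 ends of Ddx19b, where the PSI of the nearer end went from 34.5% to 51.9% and that of the farther end from 65.5% to 48.1%. In the transcript counts the short Ddx19b-202 held at most 3.07% of Ddx19b in any library, so those counts did not resolve the 2 ends.

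**Figure D5:**
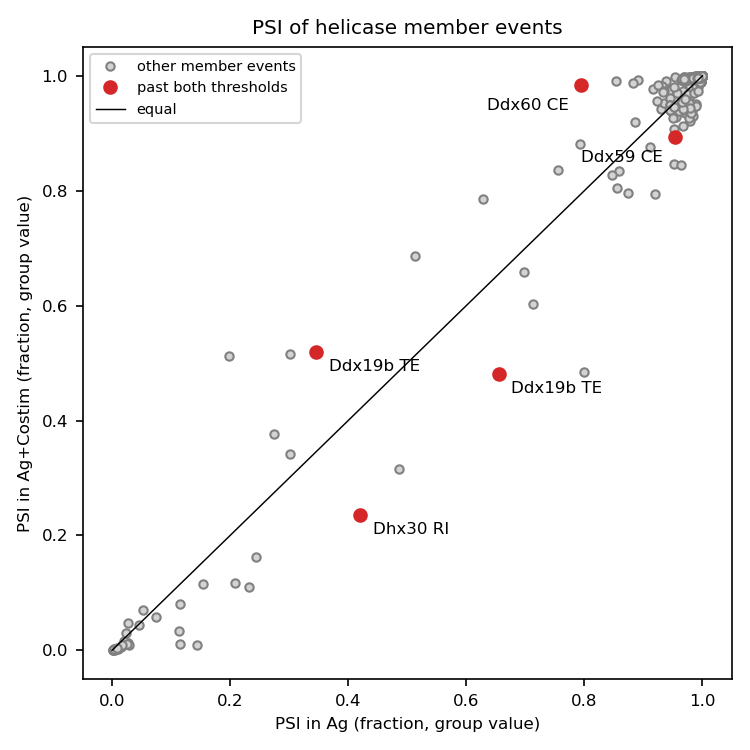
Each point is 1 of 713 events in helicase members, with the PSI of the Ag group on the x axis and of the Ag+Costim group on the y axis (fractions, libraries combined). The 5 events past both thresholds are in red, the Dhx30 intron (0.420 and 0.236) below the diagonal and the Ddx60 exon (0.794 and 0.985) above it, and most events crowd near 1 in both groups.

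Other RNA helicases and known partners were counted for comparison. Of 14 RNA helicases outside the Ddx and Dhx symbols, 11 had a fold change above 0 with TMM (78.6%, against 75.6% of genes at 10 CPM or more) and 6 with total counts. None was called by edgeR, and DESeq2 called 1 (7.14%, against 9.84%). An unadjusted edgeR p of 0.05 was passed by 4 (28.6%, against 20.2%). Mtrex and Supv3l1 stood without overlap (14.3%, against 11.3%). The median of these 14 helicases was 0.21, below the 0.39 of the 45 members. Of 22 partners, 21 were above 0 with a median of 0.57 (20 and 0.37 with total counts), and none was called by edgeR. DESeq2 called 6 of them (27.3%, against 9.84% of genes at 10 CPM or more) and 10 passed an unadjusted edgeR p of 0.05 (45.5%, against 20.2%). Gemin4 and Gemin5, which sit with Ddx20 in the SMN complex, had log2 fold changes of 0.96 (SE 0.30, edgeR BH 0.222) and 0.85 (SE 0.23, edgeR BH 0.194). Both were lowest in Ag replicates 1 and 4 (22.3 and 27.2 CPM for Gemin4, 24.0 and 26.0 CPM for Gemin5). The groups overlapped for Gemin4 and not for Gemin5. The other listed partners in the SMN complex had lower values, with 0.64 for Gemin6, 0.57 for Gemin2, 0.48 for Smn1, 0.02 for Gemin7 and -0.20 for Gemin8. Drosha and Dgcr8, the microRNA processor with which Ddx5 and Ddx17 associate, had 0.88 (SE 0.17, edgeR BH 0.134) and 0.66 (SE 0.18, edgeR BH 0.193), each without overlap. Patl1, a decapping factor bound by Ddx6, had 0.66 (SE 0.12, edgeR BH 0.134), also without overlap. Of the 8 Ddx and Dhx genes left out by the rule, 6 were above 0 (75%, against 75.6%) and 4 with total counts, with a median of 0.28. DESeq2 called 2 of the 8 (25%, against 9.84%).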

How the data were processed

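Poly(A) RNA was read as paired ends of 150 bases from SMART-Seq v4 and Nextera XT libraries, which do not mark strand. The authors used HISAT2 2.1.0 (mm10) for alignment, SAMtools 1.9 for sorting and StringTie 2.1.0 for gene and transcript counting. These deposited values are estimated counts without normalization, derived from coverage, so totals are not reads. The authors' Whippet table (version not given in the sources used here) holds 1 PSI fraction per group and event and a probability score, deposited with it and used as a threshold alone. Its differences, complexity and entropy columns were not used. Lane 4 held all libraries.

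Identifiers matched GENCODE M21, and numbered and spike-in entries were left out (at most 0.308% of a library's counts). Counts were rounded and tested with edgeR 4.0.16 in R 4.3.3 (filterByExpr by group, TMM, robust quasi-likelihood test, BH over all genes). DESeq2 1.42.0 and limma 3.58.1 (voom with library weights, diffSplice) were alternatives. Transcript usage used diffSpliceDGE with a share difference over 0.1. Scripts were tested on simulated data. TPM was computed from transcript counts and annotated lengths. The share tests are two-sided. Intervals and tests cover these libraries. The design was written for 10 libraries with counts.

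Members, role groups and lists were chosen with earlier results of these data known. Named members are those without overlap (up to 12 per direction), the 5 with the largest fold change per direction at 10 CPM or more, the 5 with the highest level per length, 8 fixed genes (Dhx30, Ddx11, Ddx3x, Ddx5, Ddx17, Ddx6, Dhx9, Ddx21) and those with a called event or usage. Annotated genes on the opposite strand overlap 13 members, whose reads cannot be told apart there. The replicate numbers are not shown to pair the libraries, and the main tests took the libraries as unpaired. The members' proteins were not analysed here.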

Additional observations from a re-analysis of the deposited data

Results flagged for a closer look

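In each group of 5 libraries, the highest and lowest library was compared with the next one, and a gap above 0.71 of the group's whole range marked it as standing apart. This was done for 64 sets of 5 values (CPM of the 26 named members, the 2 transcript shares and the 4 paralog ratios in each group), and chance marks about 1 in 20 such sets. It marked 3, all Ag+Costim replicate 4. Ddx19a had 70.3 CPM there, against 58.5 to 60.8 CPM in the other Ag+Costim libraries. Ddx42 had 165 CPM, against 129.7 to 135 CPM. The Dhx30 intron was retained in 63.4% of the counts compared, against 4.45% to 19.1% in the other Ag+Costim libraries.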

How the results depend on the processing

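Of the 26 named members, 21 kept the direction of their fold change under all 19 other settings. Ddx5 was at -0.11, -0.056 and -0.11 (log2) with total counts, the upper quartile and genes of at least 10 CPM. Ddx6 was at -0.24, -0.17 and -0.24 in the same settings, at -0.062 with DESeq2 size factors, -0.051 with DESeq2's test and -0.19 with voom. Ddx17, Ddx50 and Dhx57 were at 0.082, 0.31 and 0.19 without the filter on low counts and at 0.52, 0.014 and 0.33 without Ag replicates 1 and 4, a setting chosen after seeing the data. Leaving out 1 library gave -0.31 to 0.10 for Ddx17, -0.051 to 0.041 for Ddx50, -0.21 to 0.11 for Dhx57 and -0.023 to 0.26 for Ddx6. DESeq2 called 15 members and voom 38, against 0 with edgeR, and no other setting called any. Members without overlap numbered 14 higher. By total counts they were 7 (16.7% of members against 7.28% of genes at 10 CPM or more). By the upper quartile they were 4, and 1 lower (9.52% against 3.73%). They were 24 without the filter, 5 with genes of at least 10 CPM, and 14 to 23 (0 to 1 lower) leaving out 1 library. The 23 came without Ag replicate 5 (54.8% against 19.4%). For the 24, the 5 and the other left-out libraries no share of genes is given. Whether members differed from other genes there was not tested. The median fold change of 0.39 was 0.16 by total counts and 0.18 by the upper quartile. It was 0.73 without the filter, 0.19 with genes of at least 10 CPM and 0.63 with voom. The cause of these shifts was not tested.

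For transcript usage, 0 members were called with limma, with at least 50 counts in 5 libraries and with the replicate block, and 1 (Ddx11) leaving out any library. The Ddx11 share difference ran from 20.9 to 37 points leaving out 1 library, with exact permutation p-values of 0.0635 to 0.0794 without any 1 Ag library, and that of Dhx30 from -12.6 to 5.75 points. The log2 ratios Ddx39/Ddx39b and Ddx5/Ddx17 differed between groups by -0.062 and -0.17 without Ag replicates 1 and 4, and by 0.38 and 0.21 with them. Member PSI events past the thresholds numbered 5, 2 with a probability over 0.95, 4 with a difference over 0.1 and 35 with no probability threshold. The replicate numbers are not shown to pair the libraries (correlations of same-numbered deviations from -0.0997 to 0.113, 0 of 5 Ag and 3 of 5 Ag+Costim libraries correlating best with their own number). With the replicate block 0 members were called by gene counts, and Ddx17 was at 0.0018.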
